A study of Mus musculus with 24 samples.

Results

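Loss of TFE3 in B16-F10 mouse melanoma cells without MITF and TFEB was examined. The triple knockout (TKO) was compared with the MITF/TFEB double knockout (DKO). TFE3 was the only member of the family edited in the TKO and not in the DKO. The study saw a minor band with its MITF antibody in the MITF knockout. It proposes that a little truncated MITF may remain, so lines called without MITF here are lines edited in Mitf. The comparison used 6 of the 24 libraries of the series, 3 from each line, and all 12010 genes of the table. Every line carried a luciferase reporter, and the other 6 lines were the parental cells, the MITF, TFE3 and TFEB single KOs, the MITF/TFE3 DKO and the TFEB/TFE3 DKO, also with 3 libraries each. RNA was read from its 3′ end after poly(A) priming, and the values are CPM, reads set relative to the total of each library and scaled between libraries, called signal here. The lines edited in Tfeb or Tfe3 were isolated as clones, and how many clones of a line were sequenced is not given in the sources used here, so a difference between clones cannot be told apart from the loss of TFE3, and p-values measure the spread between libraries of a line.

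MITF, TFEB and TFE3 are basic helix-loop-helix leucine zipper transcription factors that bind DNA as dimers at E-box sequences. TFEB and TFE3 are best known for turning on lysosome and autophagy genes when mTORC1 is inactive, and MITF for the pigment genes and identity of melanocytes. Type I interferons act through the receptor chains Ifnar1 and Ifnar2 and a transcription factor complex that includes STAT2 and IRF9, which binds interferon-stimulated response elements and turns on antiviral effectors, nucleic acid sensors and antigen presentation genes.

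Depth on genes ran from 20071912 to 26667877 reads over the 6 libraries. No pair of replicates agreed within sampling noise, as the chi-square divided by its degrees of freedom was 4.61 to 39.1, so all 6 were counted. In 100-gene windows along the chromosomes the median log2 difference stayed between -0.0948 and 0.0906 of that of all genes, and no window reached a shift of 0.3. Of 10 melanoma markers all were in the table, and their summed signal was 17400 to 18480 in the TKO and 19450 to 21760 in the DKO. Of the leukocyte markers 2 of 14 were in the table, with summed signals of 3.06 to 3.87 in the TKO and 2.12 to 4.37 in the DKO, those 2 being Lyz2 and Fcer1g, while the defining Ptprc and Itgam were not in it. Of the endothelial markers Pecam1 and Vwf were in the table, 2 of 8, with at most 0.215 in the TKO and 0.706 in the DKO. The 2 fibroblast markers of 8 that were in the table, both collagens, summed to 15.99 to 17.4 in the TKO and 34.4 to 45.3 in the DKO. The 2 epithelial markers of 7 in the table, Krt14 and Cdh1, summed to 16.4 to 19.7 and 7.72 to 9.84. The part of other cells in the results was not tested.

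The edited genes were looked at first. Tfe3 lies on chromosome X of GRCm39 (7628761 to 7641444, forward strand), and its guide, as the series' design text gives it, matched 1 genomic site followed by an NGG motif, on the reverse strand of X:7631806-7631825, inside exon 2 of 10 and within the coding sequence. The Tfeb guide matched 17:48097370-48097389 on the forward strand, in coding exon 3 of 9. Both sites are shown as the matches of the guides in that text. The NGG motif is in capitals, and the sequence runs 5′ to 3′ in the direction of the guide. The study's methods list another guide for Tfe3, which was not analysed here, so where Tfe3 was edited was not established.
Tfe3 site: cgtagaagctgtcaggatcgAGG
Tfeb site: tggacacgtactgtccacctCGG

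Tfe3 signal was 56.3, 62.5 and 50.3 CPM in the DKO and 21.7, 19.9 and 17.6 CPM in the TKO. All TKO libraries were below all DKO libraries, and the log2 difference was -1.47 (SE 0.16, limma adjusted p = 2.69e-07). Its mean was 8.63 for the MITF/TFE3 DKO, 10.8 for the TFE3 KO and 11.3 for the TFEB/TFE3 DKO, so the TKO kept the highest Tfe3 signal of the 4 lines edited in Tfe3. A tag at the 3′ end does not read the edited exon and checks the edit only through RNA level. Tfeb signal was low in both lines, with 3.06, 2.64 and 3.86 CPM in the DKO and 3.10, 2.81 and 3.40 in the TKO. Mitf RNA was 603, 544 and 594 CPM in the DKO and 350, 326 and 329 in the TKO, a log2 difference of -0.79 (SE 0.09, limma adjusted p = 1.49e-06) that did not reach the 2-fold threshold.

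**Figure D1:**
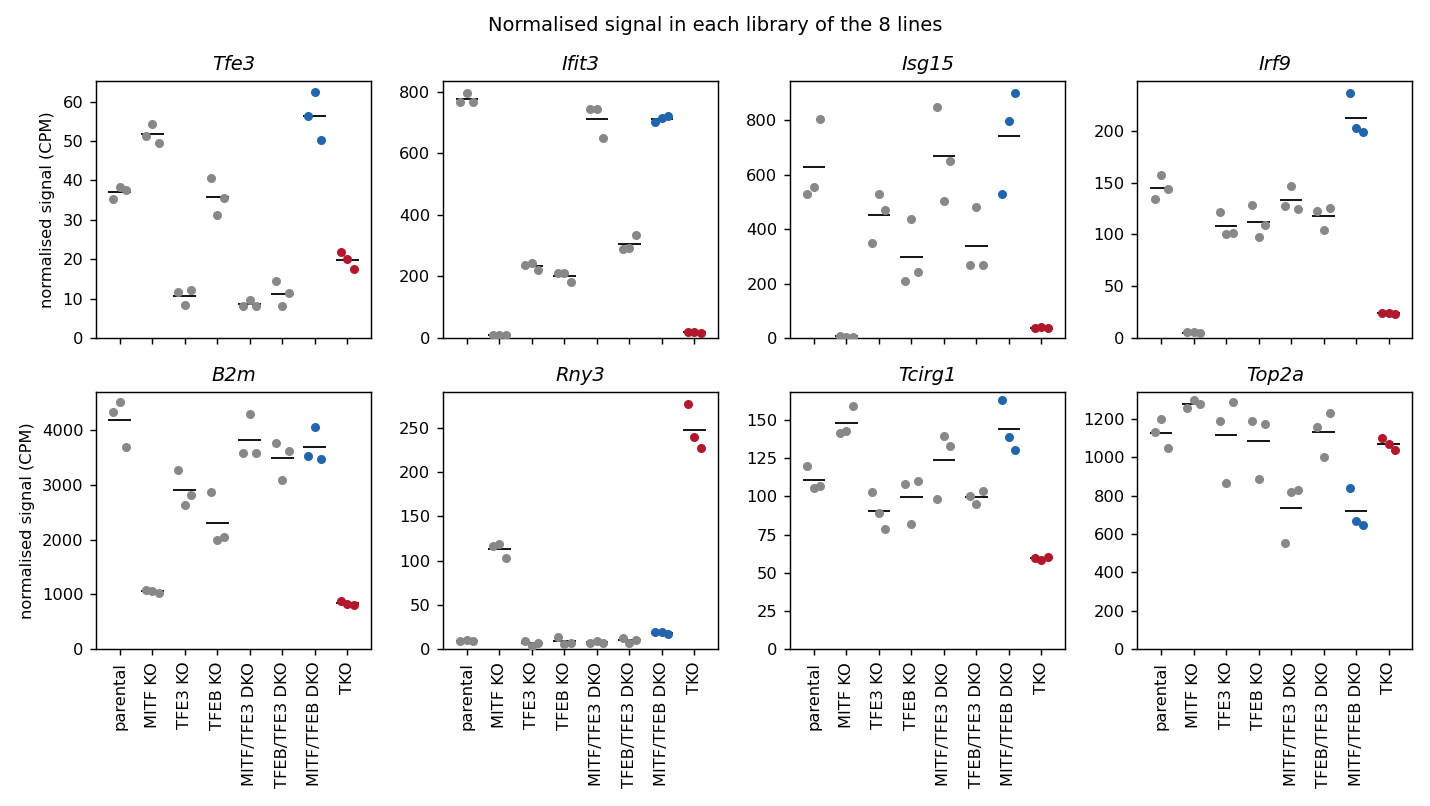
Signal (CPM, linear axes starting at 0) of 8 genes in each of the 24 libraries, with points for libraries and a bar for the mean of each line; the MITF/TFEB DKO is blue and the TKO red. The interferon genes Ifit3, Isg15, Irf9 and B2m lie lower in the 3 TKO libraries than in the 3 DKO libraries, and Rny3 lies higher.

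More genes were lower than higher in the TKO. A gene was called when it changed at least 2-fold with an unadjusted p under 0.05 in limma, the threshold the study used, and 238 genes were lower in the TKO (1.98% of all genes) and 38 higher (0.316%). Of these, 237 and 37 also had an adjusted p under 0.05. The median log2 difference of all genes was 0.0084, and 86.2% of called genes were lower. In all 276 called genes the libraries of the 2 lines did not overlap, but this was common with 3 libraries a line, as the TKO lay below the DKO without overlap in 16.5% of all genes and above it in 16.8%. Of the 56 genes lower by at least 3 on the log2 scale, 42 stood on 1 of 5 lists of interferon genes, while 4 genes were higher by at least 2. The count depends on the scale, as a fold change on log2(CPM + 1) understates changes of genes with few reads, and edgeR on whole reads called 416 lower and 90 higher.

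**Figure D2:**
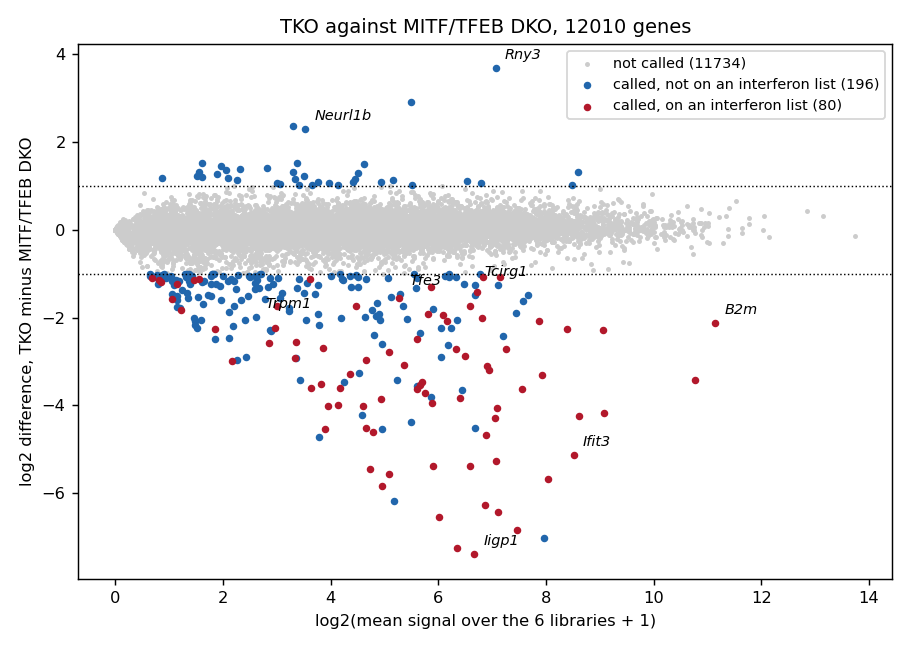
Log2 difference (TKO minus MITF/TFEB DKO) against log2 of the mean signal over the 6 libraries plus 1, one point for each of 12010 genes; dotted lines mark 2-fold. The 80 called genes on an interferon list, in red, all lie below the lower line.

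The lists of interferon genes held 112 genes of the table, and 80 of them were lower and none higher in the TKO, which is 33.6% of all lower genes. Of the 35 antiviral effectors 32 were lower, with a median log2 difference of -3.60. Ifit3, an interferon-induced RNA-binding protein (19:34560899-34566443 of GRCm39, forward strand), had 701, 714 and 722 CPM in the DKO and 20.7, 20.4 and 17.7 in the TKO, a 36.3-fold lower mean (log2 difference -5.12, SE 0.08, limma adjusted p = 4.9e-23). Isg15, a ubiquitin-like protein, had 528, 799 and 900 CPM in the DKO against 35.9, 39.7 and 37.3. The lowest DKO library was still over 10 times the highest TKO library. Usp18, which removes ISG15 from proteins and damps interferon signalling, had 292, 273 and 256 CPM against 2.33, 1.997 and 2.28. Rtp4 and Phf11d changed by -5.25 and -5.37 on the log2 scale.

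For the genes at the bottom of the range the TKO held almost no reads. Ifi44 had 148, 170 and 167 CPM in the DKO, and in the TKO 0.219 in replicate 1 and 0 in replicates 2 and 3. Ifi27l2a had 125, 137 and 118 CPM in the DKO and 0.255, 0.380 and 0.516 in the TKO, and its mean was at most 1.97 in every other line, so here the DKO stood alone. Mndal, an interferon-inducible DNA-binding protein of the HIN-200 family, went from 517, 469 and 491 CPM to 2.99, 2.62 and 2.88. The members of that family, and those of the Apol9, Oas, Ifit and class I gene families, share sequence, and how the counting split their reads is not given in the sources used here. The effectors not called were Ifi27 (log2 difference -0.64), Ifitm2 (-0.27) and Ifit2 (-0.25).

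Nucleic acid sensors and the oligoadenylate synthetases (OAS), which detect foreign RNA and DNA, were lower in 18 of 22 genes, with a median of -2.84. Ifi204 had 66.3, 55.5 and 58.6 CPM in the DKO and 0, 0 and 0.258 in the TKO. Oas2 had 61.2, 70.0 and 65.9 CPM in the DKO and 0.765, 0.143 and 0.430 in the TKO. Ifih1, which encodes the RNA sensor MDA5, had 64.9, 53.2 and 57.6 CPM against 7.25, 8.80 and 7.01. The groups were separate for each of these genes, as they were for all 238 lower genes. Ifi203 and Oasl2 changed by -5.67 and -5.44. Not called were the adaptors Mavs (log2 difference 0.10) and Sting1 (-0.05), the DNA sensor Cgas (-0.45), which makes the second messenger for STING1, and Samhd1 (-0.59), which breaks down deoxynucleotides.

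Interferon-induced GTPases, which act on vacuoles that hold microbes, and the Apol9 genes were lower in 15 of 16 members, with a median of -3.14. With the 4 genes that had no reads in the TKO set to the bound that 3 reads give, the median was -3.89. Iigp1 had 192, 206 and 206 CPM in the DKO and 0.619, 0 and 0.086 in the TKO. Apol9b had 393, 344 and 305 CPM against 1.71, 2.66 and 1.81, and Apol9a changed by -6.26. Igtp had 186, 196 and 177 CPM against 3.93, 3.14 and 3.53. Tgtp1 was just short of the threshold at -0.99.

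Of the 22 interferon signalling genes 3 were lower, and the list median was -0.14. Irf9 and Stat2 were among them. Irf9 (14:55841028-55847812 of GRCm39, overlapped on the same strand by Rnf31) had 237, 203 and 199 CPM in the DKO and 24.2, 24.5 and 23.05 in the TKO, a log2 difference of -3.10 (SE 0.11, limma adjusted p = 3.07e-16). Stat2 had 76.7, 70.6 and 70.7 CPM against 8.12, 7.23 and 7.83. Both genes are interferon-induced as well as mediators of the response. The receptor chain Ifnar1 had a mean of 24.5 ± 2.18 CPM (SD, n = 3) in the DKO and 21.97 ± 0.708 in the TKO (log2 difference -0.15, 95% interval -0.41 to 0.12). Ifnar2 and the kinase Jak1 had log2 differences of -0.25 and -0.14, with intervals of -0.42 to -0.08 and -0.34 to 0.06. Irf3, which turns on interferon genes downstream of the sensors, was at 0.15 (interval -0.09 to 0.39). Ifnb1 was not in the table.

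Class I antigen presentation genes were lower in 12 of 17 members, with a median of -1.13. B2m, the invariant chain of class I molecules (2:121977957-121983594 of GRCm39), had 3537, 4067 and 3467 CPM in the DKO and 882, 830 and 812 in the TKO, a 4.39-fold lower mean (log2 difference -2.13, SE 0.13, limma adjusted p = 4.85e-12). Tap1, a subunit of the peptide transporter, had 24.2, 26.4 and 24.05 CPM against 1.57, 0.618 and 1.76. H2-D1, a class I heavy chain, had 443, 599 and 614 CPM against 104, 113 and 126. Psmb9, an immunoproteasome subunit, fell from 2.98, 4.66 and 7.45 CPM to 0.255, 0.143 and 0.215, a low level. The gene lies against Tap1 on the opposite strand. H2-K1 was almost absent from both lines, at most 0.980 CPM, and had no reads in the TKO.

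The promoters of the lower genes were searched for the core of the interferon-stimulated response element, taken as 2 copies of GAAA with any 2 bases between them, and for TCACGTGA and CACGTG, an extended E-box of lysosome genes and the E-box core that it contains, on both strands. RefSeq promoters (GRCm38.p6, 250 bases before to 50 after the start) matched 9647 of the 12010 genes, with 1.28 promoters per gene. Lower genes had 1.36 and higher genes 1.69. A gene counted if any of its promoters held the sequence, so more promoters give more occasions for a match. The response element core was present for 3.55% of all genes, for 34.8% of the 184 lower genes with a promoter, for 57.6% of the 59 of these on the interferon lists and for 30 of the 125 others. It was present for 0 of 26 higher genes. CACGTG was present for 1155 of the 9647 genes, for 6.52% of lower genes and for 15.4% of higher genes, which is 4 of 26. TCACGTGA was present for 2.30%, 1.63% and 3.85%, the last being 1 of 26. Over 4 lysosome and autophagy lists the shares were 26.4% and 11.3%. Stretches before the start were sought for chosen genes, and those of 3 interferon genes and of Ctsa are shown as examples. None was found for Irf9, Oas2, Tap1 or Usp18, nor for Tcirg1 with either E-box word. A gene with no promoter in the set would also give none. Iigp1 was also among the chosen genes, but promoters on its chromosome were left out when stretches were sought. The stretches run 5′ to 3′ on the strand of the gene, with the word in capitals.
Isg15 (4:156200872-156200911, reverse strand): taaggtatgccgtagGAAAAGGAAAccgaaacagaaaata
Ifit3 (19:34583358-34583397, forward strand): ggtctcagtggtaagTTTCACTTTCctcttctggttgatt
Stat2 (10:128270261-128270300, forward strand): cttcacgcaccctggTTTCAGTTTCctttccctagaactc
Ctsa (2:164833745-164833772, forward strand): acaatgagcaaactgTCACGTGAtgcag

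The level of the interferon genes in the other 6 lines sets the change beside the other backgrounds. The effector list had its highest median signal, 139 CPM, in the MITF/TFEB DKO, followed by 95.8 for parental cells. Medians of 66.1 for the MITF/TFE3 DKO, 61.3 for the TFEB/TFE3 DKO, 47.97 for the TFEB KO and 41.3 for the TFE3 KO came next. The TKO, at 9.07, and the MITF KO, at 3.54, were the 2 lowest lines. The mean of Ifit3 was 19.6 CPM for the TKO, 8.96 for the MITF KO, 713 for the MITF/TFE3 DKO and 777 for parental cells, and that of B2m was 841, 1055, 3816 and 4181.

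TFE3 was lost in 4 pairs of lines that shared no library, and the values of the interferon genes in them are set side by side. In parental cells 39 of the 112 interferon genes were lower on TFE3 loss (1.34% of all genes were) and none higher (0.366%). In cells without MITF 77 were higher (3.39%) and none lower (1.67%). In cells without TFEB none was called in either direction, where 0.15% of all genes were higher and 0.0416% lower. The median log2 difference of the 112 genes was -0.66, 2.36 and 0.30 in these pairs and -2.25 between the TKO and the MITF/TFEB DKO. In cells without MITF the rise started from the low levels of the MITF KO given above.

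**Figure D3:**
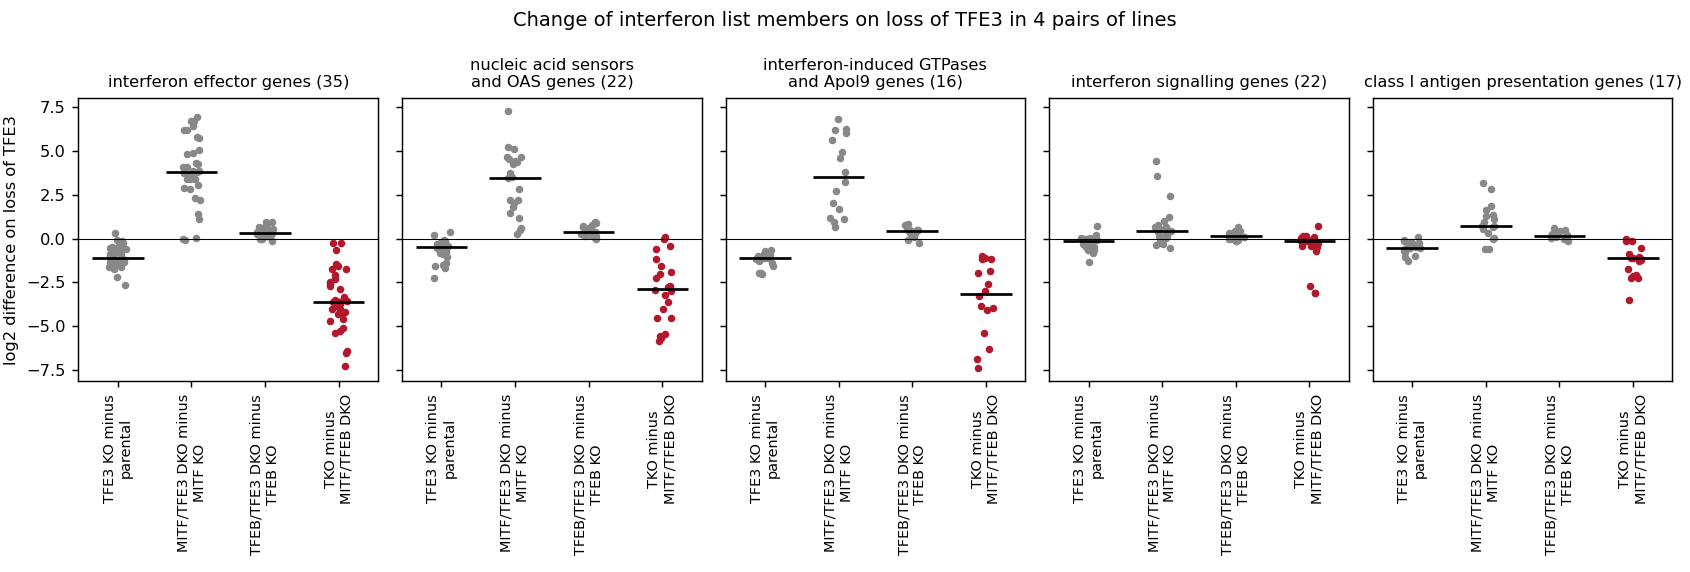
Log2 difference on loss of TFE3 in 4 pairs of lines, for the members of the 5 interferon lists (number of genes in brackets); points are genes and bars medians. The TKO minus MITF/TFEB DKO differences, in red, lie lowest for the effector, sensor and GTPase lists, and the MITF/TFE3 DKO minus MITF KO differences lie highest.

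The difference between pairs was tested directly as an interaction, called at a log2 difference of at least 1 with an adjusted p under 0.05. Of the 35 effectors, 29 changed by less than in parental cells, that is further downwards, against 1.98% of all genes. For the contrast with cells without MITF the count was 33 (4.63%) and with cells without TFEB 32 (2.67%). In no interferon gene was the change higher than in another background, where 1.11%, 3.36% and 0.483% of all genes were. Of the 22 sensors the counts were 16, 19 and 18, of the 16 GTPase and Apol9 genes 9, 16 and 15, of the 22 signalling genes 3, 6 and 4, and of the 17 class I genes 6, 12 and 10.

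The 238 lower genes as a whole were looked up in the other 3 pairs. Their libraries entered the call only through the estimate of the spread that all lines shared. In parental cells 63 of them, or 26.5%, were lower on TFE3 loss (1.34% of all genes were) and none higher (0.366%). In cells without MITF 136, or 57.1%, were higher (3.39% of all genes) and 5 lower (1.67%). In cells without TFEB 2 were higher (0.15% of all genes) and 1 lower (0.0416%). Of the 38 higher genes, 11, or 28.9%, were lower on TFE3 loss in cells without MITF (1.67% of all genes) and 3 higher (3.39%). In parental cells 1 of the 38 was lower (1.34% of all genes) and 1 higher (0.366%). In cells without TFEB none of them was called in either direction.

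Outside the interferon lists 158 genes were lower, and the 4 described here were chosen after their values were seen. Apod, a lipid-binding lipocalin, had 113, 106 and 104 CPM in the DKO and 7.505, 7.08 and 5.72 in the TKO, and was at most 13.8 on average in the other lines. Rhox5, a homeobox gene, had 252, 250 and 243 CPM against 46.6, 44.1 and 46.4. Cyp26b1, which degrades retinoic acid, had 89.6, 85.5 and 75.7 against 15.96, 13.5 and 17.2. Dbh, which makes noradrenaline, had 129, 131 and 116 against 54.6, 50.8 and 50.8. The 2 lines were separate in each of these, as in all 238 lower genes, so the separation adds no support. It was found downwards in 16.5% of all genes.

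Of the pathways for which the family is known, few genes passed the 2-fold threshold, which 1.98% of all genes passed downwards. The share of lysosomal hydrolases that did, 1 of 46, was near that background. Tcirg1, an a subunit of the proton pump of lysosomes (19:3946050-3957917 of GRCm39, reverse strand), was the only V-ATPase gene of 18 called, with 163, 139 and 131 CPM in the DKO and 59.5, 58.7 and 60.6 in the TKO (log2 difference -1.25, SE 0.12, limma adjusted p = 7.68e-08). Ctsa, the protective protein of lysosomal neuraminidase, was that hydrolase, with 105, 94.8 and 97.4 CPM against 44.4, 47.0 and 47.0 (log2 difference -1.08). Its mean in the other 6 lines ranged from 74.0 to 131 CPM, above the TKO in each. No gene of the lists of lysosomal membrane proteins (26), autophagy genes (41), mTORC1 inhibitors (10), or folliculin, Rag and Ragulator genes (21) was called.

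Below the 2-fold threshold, counts at an adjusted p under 0.05 with any fold, a threshold chosen after the data were seen, were 839 genes lower (6.99% of all genes) and 650 higher (5.41%). By it 11 of 46 lysosomal hydrolases were lower and 1 higher, with a list median of -0.21. For the V-ATPase genes 4 of 18 were lower and none higher (median -0.16), for lysosomal membrane proteins 6 of 26 and none (-0.14), and for autophagy genes 4 of 41 and 1 (-0.14). Sqstm1, an autophagy receptor, was 618, 599 and 565 CPM in the DKO and 430, 412 and 410 in the TKO (log2 difference -0.51, limma adjusted p = 0.000255). Ctsd, an abundant lysosomal protease, was 893, 816 and 735 against 611, 567 and 593. Rragd, a Rag GTPase that relays nutrient signals to mTORC1, was the 1 lower gene of 21 on its list, with 12.2, 15.2 and 18.0 CPM against 8.78, 7.04 and 9.20. The inhibitor Deptor had a log2 difference of -0.12.

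Pigment genes had a median of -0.24. Trpm1, a melanocyte channel whose intron holds Mir211 (7:63803583-63922019 of GRCm39), was the only 1 of 28 called. That count was close to the share of all genes called lower, 1.98%. Trpm1 had 8.90, 7.01 and 10.5 CPM in the DKO and 0.947, 1.38 and 2.15 in the TKO, and its mean in the other 6 lines was between 19.6 and 33.1. At an adjusted p under 0.05 with any fold 10 of the 28 were lower (6.99% of all genes were) and none higher (5.41%). Pmel, of the melanosome fibrils, had 813, 970 and 1038 CPM against 527, 544 and 583. Dct, which stayed the most abundant melanoma marker, had a log2 difference of -0.16 (interval -0.39 to 0.08), and Sox10 of -0.06 (interval -0.26 to 0.14).

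**Figure D4:**
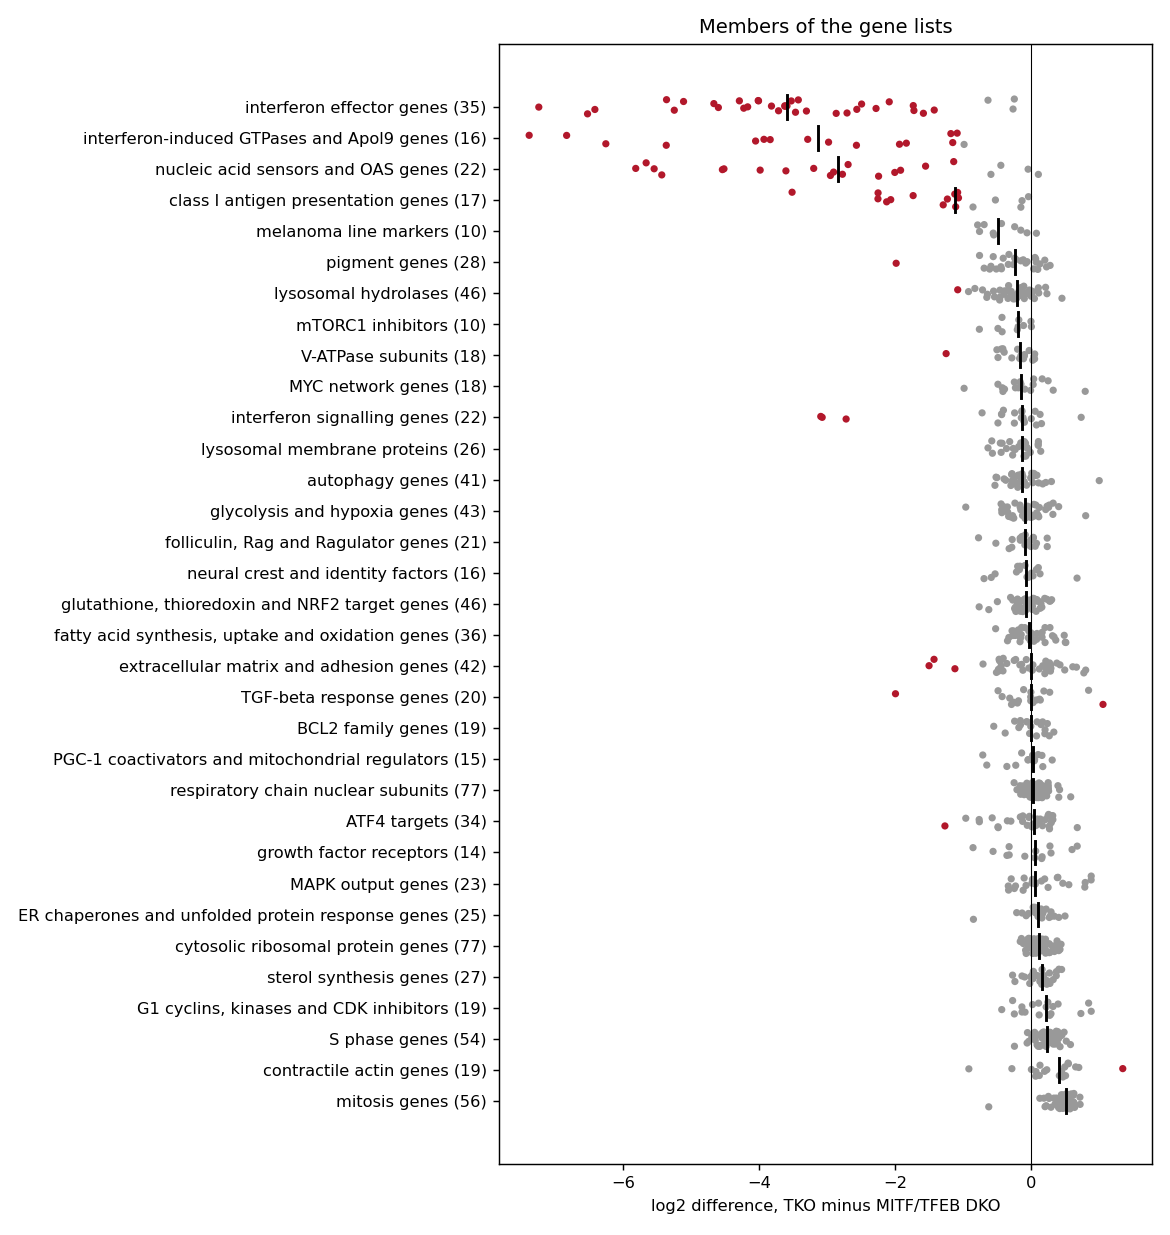
Log2 difference (TKO minus MITF/TFEB DKO) of the members of each gene list with at least 10 genes in the table (number in brackets); points are genes, red where called, and bars are list medians. The interferon effector, GTPase, sensor and class I lists lie furthest left, and the mitosis genes furthest right.

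Of 42 matrix and adhesion genes 3 were lower, where 1.98% of all genes were, namely Col1a1, Col1a2 and Thbs1 (log2 differences -1.51, -1.12 and -1.43), and the list median was -0.01. At any fold 8 were lower (6.99% of all genes were) and 5 higher (5.41%). Thbs1, which activates TGF-beta, had 17.4, 13.4 and 15.7 CPM in the DKO and 4.55, 7.51 and 3.78 in the TKO. Of the 20 TGF-beta response genes 1 was lower (1.98% of all genes were) and 1 higher (0.316%). Pmepa1, a TGF-beta-induced inhibitor of its pathway, had 40.2, 31.2 and 44.7 CPM against 8.34, 9.27 and 8.90. Ccn2, another TGF-beta response gene, was higher by 1.05, but its adjusted p was 0.148 in limma and its call was lost with 1 library left out. Without TKO replicate 2 its log2 difference was 0.996, without TKO replicate 3 it was 0.894, and without DKO replicate 1 it was 0.67. Ddit3, a stress-induced transcription factor, was the only ATF4 target of 34 called, with 213, 196 and 172 CPM against 83.2, 77.6 and 77.1.

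The largest rises were of the Y RNA Rny3, of Ro ribonucleoproteins, and its relative Rny1, short RNAs made by RNA polymerase III. Rny3 (6:47758558-47758659 of GRCm39) had 18.9, 19.6 and 17.2 CPM in the DKO and 276, 239 and 228 in the TKO (log2 difference 3.67, SE 0.24, limma adjusted p = 2.55e-11). Rny1 had 13.02, 7.77 and 8.92 CPM against 83.2, 83.4 and 69.1. The MITF KO was the only other line in which Rny3 was above 20, with a mean of 113, and there Rny1 had 26.6. These RNAs do not end in poly(A) as messengers do, have many genomic copies, and annotated genes overlap Rny3 on the same strand.

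Protein-coding rises were smaller. Neurl1b, a ubiquitin ligase of the Notch pathway (17:26633795-26665323 of GRCm39), had 2.51, 3.27 and 2.99 CPM in the DKO and 18.4, 19.5 and 16.8 in the TKO, against means of 0.730 to 5.19 in the other lines. Lrp8, a reelin receptor, had 4.74, 4.32 and 4.06 CPM against 14.6, 14.0 and 14.2, and parental cells had 24.1. Cp, the copper-binding ferroxidase ceruloplasmin, had 242, 217 and 207 CPM against 547, 548 and 565, both above the parental 40.7. Creb5, Gcnt1, Adam19, Pnck and Vash1 changed by 1.501, 1.40, 1.37, 1.30 and 1.22. The dual oxidase Duox2 and Duoxa1, a maturation factor of the dual oxidase family, were both higher, by 1.52 and 1.45. Both had at most 5.04 CPM in any TKO library. Tagln2 and Krt14, at 1.34 and 1.08, each lost the call when 1 DKO library was left out, with values of 0.966 without replicate 3 and 0.979 without replicate 2.

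None of the 56 mitosis genes was called at 2-fold. Of their log2 differences 55 were above 0, where 51.4% of those of all genes were, and the median was 0.50. At an adjusted p under 0.05 with any fold 40 were higher (5.41% of all genes were) and 1 lower (6.99%). Top2a, a topoisomerase of dividing cells, had 838, 669 and 646 CPM in the DKO and 1100, 1068 and 1035 in the TKO (log2 difference 0.58, limma adjusted p = 0.0114). Ccnb1, the mitotic cyclin, had 101, 125 and 113 CPM against 174, 159 and 169, and Mki67 had 260, 182 and 204 against 309, 317 and 334. The exception was Pttg1 at -0.63. The mean of Top2a was 1126 in parental cells and 733 in the MITF/TFE3 DKO. For the 54 S phase genes the median was 0.23, with 13 higher and none lower by the same threshold. The 19 G1 cyclins, kinases and CDK inhibitors had a median of 0.22, with 4 higher and 1 lower, again at any fold. Also at any fold, 10 of 19 contractile actin genes were higher and 1 lower (median 0.41), the lower one being Acta2 at -0.92. At 2-fold 1 of these 19, Tagln2, was called higher and none lower.

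No member was called at 2-fold among the growth factor receptors, MAPK output genes, neural crest and identity factors, endoplasmic reticulum chaperones, sterol or fatty acid synthesis genes, glycolysis genes, mitochondrial regulators, respiratory chain subunits, glutathione genes, BCL2 family, MYC network or ribosomal protein genes. Their medians ran from -0.16 for the MYC network to 0.15 for sterol synthesis. At any fold 7 of 43 glycolysis and hypoxia genes were lower (6.99% of all genes were) and 1 higher (5.41%), 4 of 23 MAPK output genes were higher and none lower, and 5 of 36 fatty acid genes were higher and 1 lower. Each of the other lists had at most 3 in either direction, and the respiratory chain and ribosomal protein genes had none. Among their most abundant members Aldoa had a log2 difference of -0.31, Fdps of 0.37, Rps26 of 0.26 and Calr of -0.14.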

How the data were processed

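Messenger RNA of 8 B16-F10 lines, 3 libraries each, was sequenced with a 3′ end kit. The authors trimmed reads with Trim Galore 0.6.5 and cutadapt 2.10, mapped them with STAR 2.7.8a to mm39 and normalised with edgeR, and they deposited a signal, TMM-scaled CPM, for 12010 genes. The counting tool, annotation and filter are not given in the sources used here. Whole reads were recovered within 0.1 of a read for 100% of values to the nearest percent in the 6 libraries compared (20071912 to 26667877 reads), and counting error covers sampling of reads only.

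All 24 libraries entered 1 limma 3.58.1 fit of the line with a variance trend (16 residual degrees of freedom), on a log2 scale with a pseudocount of 1. Adjusted p-values are Benjamini-Hochberg over all genes. In simulated counts for this comparison, changes were placed only in genes with a mean of at least 5 CPM over all libraries. Among these genes limma called 35.8% of those changed 2-fold and 100% of those changed 3-fold. A true 2-fold change lies at the threshold of the call itself, so estimates just below it are missed however small the spread. Alternatives used edgeR 4.0.16, DESeq2 1.42.0, other scalings, pseudocounts and filters. Positions came from GENCODE on GRCm39 by gene name (11659 genes).

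By rule the text names the family, the 10 largest rises and 15 largest falls (adjusted p under 0.05, mean of at least 5 CPM, no overlap). Also by rule are up to 4 called members per list, or otherwise the most abundant. So are up to 3 genes per direction that differed from each other pair. Other genes given, such as Isg15, Ifih1, Ctsd, Pmel, Ccnb1 and Duox2, were picked outside these rules as examples. The members and the 38 lists were chosen with earlier results of these data known. Columns of no sample numbered 0. A gene that these rules select is not reported here.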

Additional observations from a re-analysis of the deposited data

Results flagged for a closer look

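The change on loss of TFE3 in cells without MITF and TFEB differed from the change in the other pairs of lines by an interaction test in limma, and the genes with the largest differences in each direction are given here on the log2 scale. Below the change in parental cells were Ifi27l2a (-6.29, adjusted p = 2.15e-14), Mndal (-6.26) and Apol9b (-5.58), and above it were Rny3 (4.22), Ccdc8 (3.95) and Tuba4a (3.75). Ccdc8 and Tuba4a had no reads in the TKO and next to none in the MITF/TFEB DKO, with parental means of 18.9 and 12.5 CPM, so that these differences come from the parental pair.

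Below the change in cells without MITF were Iigp1 (-14.2), Mndal (-14.2) and Ifi44 (-14.0), and above it were Rny3 (7.38), Rny1 (5.71) and Tagln2 (5.51). Each of the 6 moved one way between the TKO and the MITF/TFEB DKO and the other way between the MITF/TFE3 DKO and the MITF KO. Below the change in cells without TFEB were Ifi44 (-8.16), Iigp1 (-7.90) and Mndal (-7.51), and above it were Tuba4a (3.80), Rny3 (3.49) and Rny1 (3.43). As Tuba4a had next to no reads in the TKO and the MITF/TFEB DKO, its difference comes from the pair without TFEB. Several of these genes had libraries at 0, where the size of a fitted difference depends on the pseudocount. Groups of 3 libraries were not tested for a library far from the others.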

How the results depend on the processing

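The 238 lower and 38 higher genes became 342 and 66 with a pseudocount of 0.25, 134 and 12 with a pseudocount of 5, 416 and 90 with edgeR on whole reads, and 428 and 91 with DESeq2. The genes that differed from parental cells (371), cells without MITF (960) and cells without TFEB (379) numbered 164, 449 and 193 with a pseudocount of 5, and 228 and 235 for the first and the last with a mean signal of at least 5. Leaving out 1 library gave 233 to 243 lower and 34 to 45 higher genes. Deviations of same-numbered libraries had correlations of 0.401, -0.0978 and 0.401, and those of different numbers ranged from -0.457 to 0.137. These values do not settle whether the numbers mark a pairing. A fit that blocked on the number gave 238 lower and 38 higher genes. All 238 lower genes remained lower with edgeR. Of 44 called genes that the text names by rule, 34 kept their call under all 18 alternatives, and none reversed. Lower effectors numbered 31 to 32, sensors 17 to 18, GTPase and Apol9 genes 10 to 16, signalling genes 3 to 5 and class I genes 8 to 13. No gene lay in a shifted stretch of neighbours, so leaving such genes out removed none. Depth limits genes with few reads.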
